A study of Mus musculus with 9 samples.

Results

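The 9 genes Ripk3, Mlkl, Casp8, Gsdmd, Casp1, Casp4, Bbc3, Bax and Bcl2 carry out or control programmed cell death. They were taken by symbol from a retinal expression table of 25108 genes and gene models, and each symbol stood on 1 row. The retinas came from C57BL/6 mice at postnatal day 17 in 3 groups of 3 libraries: wild type in room air (RA WT), wild type with oxygen-induced retinopathy (OIR WT), and IL-19 knockout with the same retinopathy (OIR KO). In oxygen-induced retinopathy, high oxygen in early life halts and prunes the retinal vessels of pups, and after their return to normal air the under-perfused retina is hypoxic and grows abnormal vessels. The making of the knockout and the number of animals per library were each not given in the sources used here. Room-air knockout retinas were not analysed here, and the genotypes were therefore compared within retinopathy.

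Cells can die by several routes that share components. In apoptosis through mitochondria, BH3-only proteins such as PUMA (Bbc3) relieve the block that BCL-2 (Bcl2) puts on the pore-forming protein BAX (Bax), and the released cytochrome c activates caspases. In necroptosis, the kinase RIPK3 phosphorylates the pseudokinase MLKL, which then breaks the plasma membrane, and caspase-8 (Casp8) cleaves the kinases upstream and holds this route in check. In pyroptosis, caspase-1 or caspase-11 (the product of mouse Casp4) cuts gasdermin D (Gsdmd), whose free end forms membrane pores. In the retina these routes are studied in photoreceptor and ganglion cell loss, and microglia are known to express many of the necroptosis and pyroptosis genes.

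Ripk3 and Mlkl of necroptosis, Casp8, the pore protein gene Gsdmd and the BH3-only gene Bbc3 were higher in retinopathy than in room air. Bax and Bcl2 were not called. Casp8 passed the test in OIR WT and narrowly missed it in OIR KO. Of the 9 genes, 7 passed the filter on low values (0.5 FPKM or more in 3 or more libraries) and were tested, and Casp1 and Casp4 did not pass it. FPKM are fragments scaled by gene length and by library size. A gene was called where limma's test across all kept genes, on log2(FPKM + 0.5), gave a Benjamini-Hochberg adjusted p under 0.05. On this scale the changes of weakly expressed genes are understated. In OIR WT against RA WT, 5 of the 9 genes rose and 0 fell, beside 16.0% called (8.04% risen and 7.92% fallen) among the 15678 genes tested. The count was 2 or 3 without each library of these groups in turn except OIR WT 2, without which it was 5. Ripk3, Mlkl and Gsdmd reached 0.5 FPKM only in retinopathy libraries, so they could be tested only because they were high there. Casp8 reached 0.5 FPKM in RA WT 3 alone of the room-air libraries, so it too passed the filter only with retinopathy libraries. In OIR KO against OIR WT, 0 of the 9 were called, beside 0.134% of all tested genes (0.0574% risen and 0.0765% fallen), and 0 of the 7 tested genes had an unadjusted p under 0.05. In OIR KO against RA WT, 4 of the 9 rose and 0 fell, beside 10.4% called (4.75% risen and 5.69% fallen). Of the 9 genes, 6 lay higher in OIR WT than in RA WT without overlap. They were the 5 that rose and Casp4, which was not tested. Beside this, 35.0% of tested genes lay without overlap (17.8% higher and 17.2% lower), a share that does not cover Casp1 and Casp4. Without overlap, 5 of the 9 lay higher in OIR KO than in RA WT, beside 32.7% of tested genes (17.3% higher and 15.4% lower). Between the genotypes, Bcl2 lay higher and Ripk3 lower in OIR KO without overlap, beside 17.7% (9.73% higher and 7.98% lower). The comparisons with RA WT share their room-air libraries.

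As facts of the whole table, relative depth from the step of low values lay between 0.853 (RA WT 2) and 1.14 (OIR KO 2) of the mean, and no absolute depth was given in the sources used here. Il19, the deleted gene, was listed at 0 in all OIR KO and OIR WT libraries and at 0.0406 FPKM in RA WT 1 alone among the room-air libraries, so it could not check the genotype labels. The Y-linked gene Ddx3y was at 0 FPKM in 1 RA WT and 1 OIR KO library (RA WT 2 and OIR KO 1), at 6.80 FPKM in RA WT 3 and at 12.9 FPKM or more elsewhere. The labelled tissue held its defining markers: the summed level of 10 rod genes was 9670 to 13344 FPKM over the 9 libraries. Nothing in the labels says that the libraries of a group came from separate animals, and p-values therefore measure the spread among libraries, which may be technical. In RA WT and OIR KO it was not technical alone, since RA WT 2 and OIR KO 1, without Ddx3y, cannot repeat their groups' other libraries. Libraries with and without Ddx3y thus stood together in RA WT and OIR KO, whereas all OIR WT libraries had it. On the leading principal component, which held 47.2% of the variance, OIR KO 3 lay at -3.30 and OIR KO 2 at 32.5, the ends of the retinopathy libraries.

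**Figure D1:**
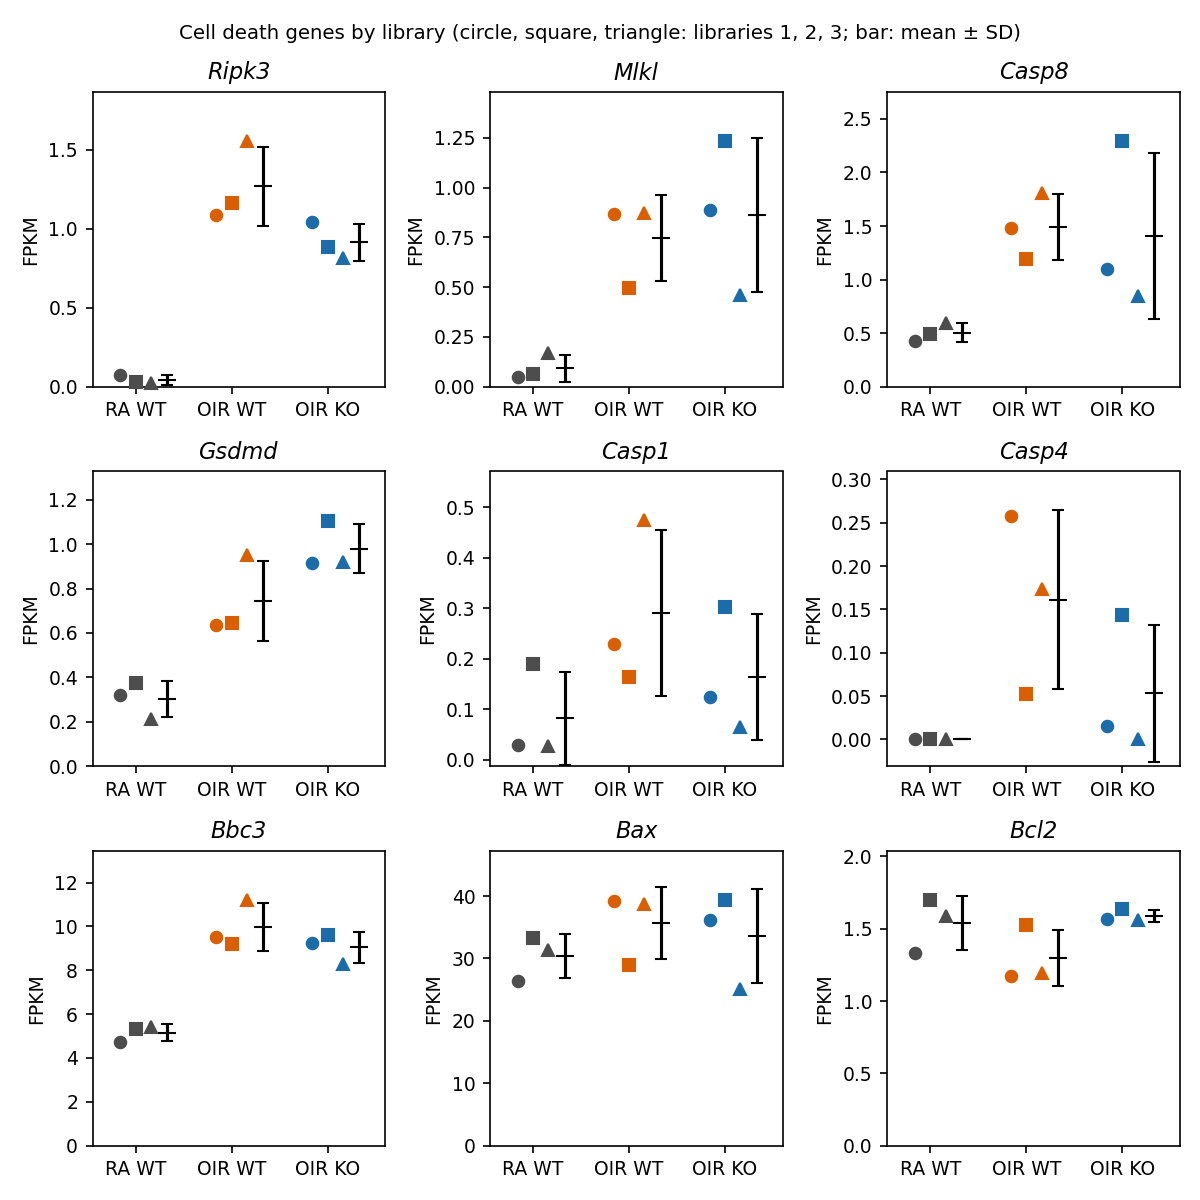
FPKM of the 9 cell death genes in each library (vertical axes, 1 scale per gene; points are libraries 1, 2 and 3 of each group, bars the mean ± SD, n = 3). Ripk3, Mlkl, Casp8, Gsdmd and Bbc3 do not overlap between RA WT and either retinopathy group, and Casp4 is listed at 0 in all 3 RA WT libraries.

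Ripk3, the kinase that commits a cell to necroptosis (ENSMUSG00000022221, GRCm38 chromosome 14, 55784995 to 55788865, minus strand), had the largest log2 change of the 7 tested genes. It was at 0.0756, 0.0291 and 0.0223 FPKM in RA WT 1, 2 and 3, at 1.09, 1.16 and 1.56 FPKM in OIR WT 1, 2 and 3, and at 1.04, 0.883 and 0.813 FPKM in OIR KO 1, 2 and 3. All 6 retinopathy libraries lay more than 10 times above the highest room-air library, and every OIR KO library lay below every OIR WT library. Mean FPKM was 0.0423 ± 0.0290 for RA WT, 1.27 ± 0.252 for OIR WT and 0.914 ± 0.119 for OIR KO (SD, n = 3 each). The log2 change was 1.70 for OIR WT against RA WT (SE 0.16, adjusted p = 0.000505) and 1.38 for OIR KO against RA WT (SE 0.16, adjusted p = 0.00192). Both calls held without each library in turn and under the other settings tried. Between genotypes the log2 difference of -0.32 (95% interval -0.67 to 0.03) was not called (adjusted p = 0.549). A gap between the retinopathy groups in either direction was seen in 17.7% of tested genes.

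Mlkl, whose product carries out the membrane break downstream of RIPK3 (ENSMUSG00000012519, GRCm38 chromosome 8, 111311797 to 111338177, minus strand), rose in both retinopathy groups. Room-air levels were 0.0462, 0.0633 and 0.171 FPKM in RA WT 1, 2 and 3. OIR WT 1, 2 and 3 stood at 0.870, 0.498 and 0.872 FPKM, and OIR KO 1, 2 and 3 at 0.889, 1.23 and 0.460 FPKM. The knockout libraries spanned the whole range of the retinopathy libraries, from OIR KO 3 at the bottom to OIR KO 2 at the top. The log2 change was 1.06 for OIR WT against RA WT (SE 0.23, adjusted p = 0.0156) and 1.16 for OIR KO against RA WT (SE 0.23, adjusted p = 0.0151). The former call was lost when RA WT 2, OIR WT 1 or OIR WT 3 was left out (adjusted p = 0.0509 to 0.0653), and the latter without OIR KO 1 or OIR KO 2 (0.0503 to 0.0543). OIR KO against OIR WT gave a log2 difference of 0.10 (95% interval -0.42 to 0.62, adjusted p = 0.934). In the annotation 1 gene, Gm45712, overlaps Mlkl on the opposite strand. Without strand information in the table, reads from the bases they share cannot be told apart.

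Casp8, the caspase that starts apoptosis below death receptors and restrains necroptosis (ENSMUSG00000026029, GRCm38 chromosome 1, 58795374 to 58847503, plus strand), was at 0.427, 0.487 and 0.599 FPKM in RA WT 1, 2 and 3. It was at 1.48, 1.19 and 1.81 FPKM in OIR WT 1, 2 and 3, and at 1.10, 2.29 and 0.843 FPKM in OIR KO 1, 2 and 3. Neither retinopathy group overlapped room air, and OIR KO 2 was the highest and OIR KO 3 the lowest of the retinopathy libraries. The log2 change for OIR WT against RA WT was 0.98 (SE 0.25, adjusted p = 0.0289), and this call was lost when any 1 of the 6 libraries except OIR WT 2 was left out (0.0631 to 0.0979), with the replicate number as a block (0.0617) and with a covariate from Y-linked genes (0.0760). For OIR KO against RA WT the log2 change of 0.86 (SE 0.25) did not pass (adjusted p = 0.0595), and it passed without OIR KO 3 (log2 1.08, adjusted p = 0.0257). The log2 difference between the genotypes was -0.12 (95% interval -0.69 to 0.45, adjusted p = 0.922), and it turned to 0.10 without OIR KO 3. A model that overlaps the gene on the same strand, Gm37760, could share reads with Casp8, as Gm45808 could with Bax.

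The sequences before the transcription starts of Ripk3, Mlkl and Casp8 are shown because the 3 genes rose together in OIR WT. They let the promoters be compared letter by letter. They come from RefSeq (GRCm38.p6), which had an entry for 8 of the 9 genes, and each is printed 5′ to 3′ on the gene's strand, up to 250 bases before the start and without annotated exon bases. Capitals mark matches, on either strand, to GGGCGG (the GC box bound by SP1), ACGTG (the core of the hypoxia response element), a GAAA repeat with a gap of 2 bases (the core of the interferon-stimulated response element), TTCNNNGAA (the STAT site), TGANTCA (the AP-1 site), the NF-kappaB consensus and a p53 half-site; matches may overlap. The windows are chr14:55788866-55789107 (minus strand), chr8:111338206-111338455 (minus strand) and chr1:58802252-58802501 (plus strand). The Casp8 window lies inside GENCODE's span of Casp8, outside annotated exons.
Ripk3: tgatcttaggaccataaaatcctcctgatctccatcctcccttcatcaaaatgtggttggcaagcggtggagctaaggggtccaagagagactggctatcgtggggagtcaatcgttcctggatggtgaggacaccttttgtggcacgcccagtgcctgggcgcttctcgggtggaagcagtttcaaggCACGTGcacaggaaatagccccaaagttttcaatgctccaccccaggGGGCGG
Mlkl: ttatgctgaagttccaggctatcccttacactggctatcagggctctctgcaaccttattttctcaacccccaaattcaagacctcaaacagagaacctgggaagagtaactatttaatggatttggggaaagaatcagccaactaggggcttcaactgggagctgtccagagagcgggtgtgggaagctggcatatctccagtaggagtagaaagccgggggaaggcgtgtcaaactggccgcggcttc
Casp8: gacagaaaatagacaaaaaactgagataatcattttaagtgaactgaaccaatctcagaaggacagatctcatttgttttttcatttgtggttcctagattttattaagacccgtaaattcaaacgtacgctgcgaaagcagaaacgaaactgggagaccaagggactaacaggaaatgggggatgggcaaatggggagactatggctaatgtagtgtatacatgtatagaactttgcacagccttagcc
The Ripk3 window held ACGTG on both strands, as the palindrome CACGTG, and 1 GC box. The Mlkl and Casp8 windows held 0 matches to any of the 7 motifs. Of the 8 genes with an entry, 4 held ACGTG: Ripk3, Casp1, Bax and Bbc3 (in a start not printed here). Bax was not called and Casp1 was not tested. The GC box was likewise held by 4: Ripk3, Bax, Bcl2 and Bbc3. Among 32851 promoter windows of 250 bases, 16.6% held ACGTG and 32.7% held GGGCGG. These shares are per window, whereas a gene with more than 1 window, such as Bbc3, was counted if any of them matched. The other shares were 2.98% for the GAAA repeat, 7.02% for TTCNNNGAA, 6.75% for TGANTCA, 7.25% for the NF-kappaB consensus and 7.13% for the p53 half-site. A match is only a string of letters in this window.

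Gsdmd, the pore former of pyroptosis (ENSMUSG00000022575, GRCm38 chromosome 15, 75862327 to 75867408, plus strand), was the member of its route that could be tested. Its level was 0.320, 0.375 and 0.212 FPKM in RA WT 1, 2 and 3, 0.634, 0.644 and 0.953 FPKM in OIR WT 1, 2 and 3, and 0.915, 1.11 and 0.919 FPKM in OIR KO 1, 2 and 3. Room air lay below both retinopathy groups without overlap, and 2 of the 3 OIR WT libraries lay below all OIR KO libraries. The log2 change was 0.63 for OIR WT against RA WT (SE 0.16, adjusted p = 0.0287) and 0.89 for OIR KO against RA WT (SE 0.16, adjusted p = 0.0107). The wild-type call was lost when any 1 of the 6 libraries but RA WT 2 and OIR WT 2 was left out (0.0549 to 0.102), after quantile normalization (0.0505), with the replicate block (0.0658) and with the Y-linked covariate (0.0611). The knockout call held without each library in turn (at most 0.0410). Between the genotypes the log2 difference was 0.26 (95% interval -0.10 to 0.62, adjusted p = 0.652), so the 2 groups' changes against room air were not shown to differ.

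Casp1 and Casp4, the genes of the caspases named above for pyroptosis, stayed below 0.5 FPKM in every library. Casp1, the caspase of canonical inflammasomes (ENSMUSG00000025888, GRCm38 chromosome 9, 5298517 to 5307265, plus strand), was at 0.0296, 0.189 and 0.0274 FPKM in RA WT 1, 2 and 3, at 0.229, 0.165 and 0.476 FPKM in OIR WT 1, 2 and 3, and at 0.125, 0.303 and 0.0646 FPKM in OIR KO 1, 2 and 3. The groups overlapped in each comparison. Casp1 has 1 annotated transcript of 1497 bases. Counts were not recovered, since low values of the table were mostly not whole multiples of 1 fragment. If the step of low values is 1 fragment, Casp1 would stand at about 0.937 (RA WT 3) to 13.9 (OIR WT 3) fragments per library. On log2(FPKM + 0.5) the difference was 0.43 for OIR WT against RA WT (exact two-sided permutation p = 0.2, where 3 against 3 libraries cannot go below 0.1), -0.25 for OIR KO against OIR WT (exact permutation p = 0.4) and 0.19 for OIR KO against RA WT (exact permutation p = 0.5).

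Casp4, which in the mouse encodes the lipopolysaccharide-sensing caspase-11 (ENSMUSG00000033538, GRCm38 chromosome 9, 5308828 to 5336783, plus strand), lies next to Casp1. It was listed at 0 in all RA WT libraries and in OIR KO 3, at 0.258, 0.0524 and 0.174 FPKM in OIR WT 1, 2 and 3, and at 0.0156 and 0.143 FPKM in OIR KO 1 and OIR KO 2. Such a value of exactly 0 may be a failed estimate, and no fold is given. OIR WT did not overlap RA WT (log2 difference 0.39, exact permutation p = 0.1, the smallest possible), while OIR KO overlapped both other groups (exact permutation p = 0.2 against OIR WT and 0.4 against RA WT). Its promoter (chr9:5308599-5308827, plus strand) is shown because it held NF-kappaB matches, in capitals here, as did that of 1 other of the 8 genes.
Casp4: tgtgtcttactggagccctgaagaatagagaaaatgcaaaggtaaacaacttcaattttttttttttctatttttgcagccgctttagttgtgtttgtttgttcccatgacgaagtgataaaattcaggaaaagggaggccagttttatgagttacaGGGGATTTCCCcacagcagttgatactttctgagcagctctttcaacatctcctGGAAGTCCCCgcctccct
The matches were GGGGATTTCC, which overlaps a match to GGGATTTCCC shifted by 1 base, and GGAAGTCCCC. The other gene was Bbc3.

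Bbc3, the gene of the BH3-only protein PUMA and a classic p53 target (ENSMUSG00000002083, GRCm38 chromosome 7, 16308393 to 16318205, plus strand), rose in both retinopathy groups. It was at 4.71, 5.31 and 5.43 FPKM in RA WT 1, 2 and 3, at 9.53, 9.19 and 11.2 FPKM in OIR WT 1, 2 and 3, and at 9.24, 9.61 and 8.27 FPKM in OIR KO 1, 2 and 3. Room air lay well below all 6 retinopathy libraries, and the retinopathy groups overlapped. The mean was 1.94 times the room-air mean in OIR WT and 1.75 times in OIR KO. The log2 change was 0.89 for OIR WT against RA WT (SE 0.11, adjusted p = 0.00188) and 0.75 for OIR KO against RA WT (SE 0.11, adjusted p = 0.00477). Both calls held without each library in turn (at most 0.0104 and 0.0250). For OIR KO against OIR WT the log2 difference was -0.13 (95% interval -0.38 to 0.11, adjusted p = 0.745). RefSeq had 3 starts for Bbc3, and the first (chr7:16309333-16309582, plus strand) is shown as the promoter of the risen apoptosis gene, with GC boxes and an NF-kappaB match in capitals.
Bbc3: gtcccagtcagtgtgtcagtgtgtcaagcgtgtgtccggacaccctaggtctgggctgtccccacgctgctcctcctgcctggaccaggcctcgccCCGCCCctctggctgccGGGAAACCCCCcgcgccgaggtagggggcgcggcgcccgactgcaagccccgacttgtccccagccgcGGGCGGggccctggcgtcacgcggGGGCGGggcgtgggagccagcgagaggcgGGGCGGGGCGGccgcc
This window was 76.4% G and C, against 39.6% in the Casp8 window and a median of 52.4% over all promoter windows.

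Bax, the pore former of the outer mitochondrial membrane (ENSMUSG00000003873, GRCm38 chromosome 7, 45461697 to 45466898, minus strand), had the highest level of the 9 genes. It was at 26.4, 33.3 and 31.4 FPKM in RA WT 1, 2 and 3, at 39.3, 29.0 and 38.8 FPKM in OIR WT 1, 2 and 3, and at 36.2, 39.3 and 25.1 FPKM in OIR KO 1, 2 and 3. The 3 groups overlapped, with OIR WT 2 and OIR KO 3 among the room-air levels or below them. The log2 change was 0.22 for OIR WT against RA WT (95% interval -0.18 to 0.63, adjusted p = 0.447) and 0.12 for OIR KO against RA WT (95% interval -0.28 to 0.53, adjusted p = 0.710). For OIR KO against OIR WT the log2 difference was -0.10 (95% interval -0.50 to 0.30, adjusted p = 0.905).

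Bcl2, the founding anti-apoptotic gene (ENSMUSG00000057329, GRCm38 chromosome 1, 106538178 to 106714274, minus strand), was at 1.33, 1.70 and 1.59 FPKM in RA WT 1, 2 and 3, at 1.18, 1.52 and 1.19 FPKM in OIR WT 1, 2 and 3, and at 1.56, 1.64 and 1.56 FPKM in OIR KO 1, 2 and 3. Every OIR KO library lay above every OIR WT library, while room air overlapped both. The log2 difference was 0.22 for OIR KO against OIR WT (95% interval -0.08 to 0.53, adjusted p = 0.647), -0.19 for OIR WT against RA WT (95% interval -0.49 to 0.12, adjusted p = 0.403) and 0.04 for OIR KO against RA WT (95% interval -0.27 to 0.34, adjusted p = 0.892). The gene D630008O14Rik overlaps Bcl2 on the opposite strand, and Mir3473f and Gm37053 overlap it on the same strand.

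The ratio of Bax to Bcl2 FPKM, often used to describe the balance of this route, was 19.8, 19.6 and 19.7 in RA WT 1, 2 and 3, 33.4, 19.0 and 32.5 in OIR WT 1, 2 and 3, and 23.2, 24.0 and 16.0 in OIR KO 1, 2 and 3. The room-air libraries were alike, and each retinopathy group held 1 library below them (OIR WT 2 and OIR KO 3). As a description, the mean ratio was 19.7 ± 0.0934 for RA WT, 28.3 ± 8.04 for OIR WT and 21.1 ± 4.38 for OIR KO (SD, n = 3 each).

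**Figure D2:**
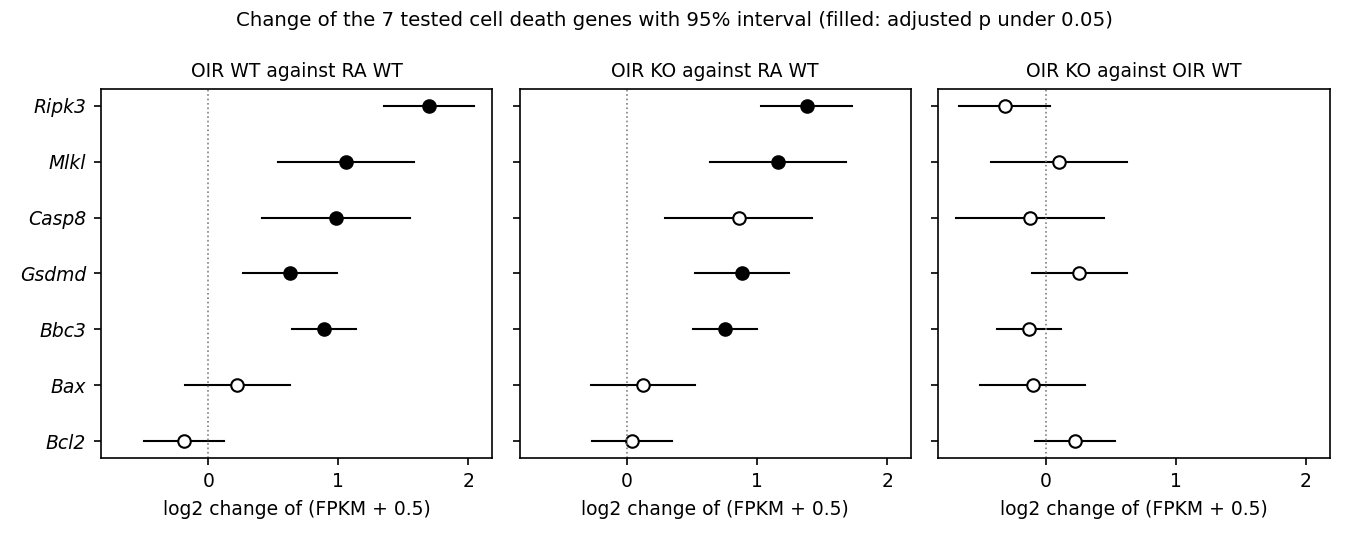
Log2 change of FPKM + 0.5 (horizontal axes) of the 7 tested cell death genes in the 3 comparisons, with lines for the 95% interval and filled points where the adjusted p was under 0.05. In OIR WT against RA WT, 5 points are filled, in OIR KO against RA WT 4, and in OIR KO against OIR WT all 7 intervals cross 0.

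Per length, so that genes can be set side by side, the mean FPKM in room air ran from Bax (30.4) through Bbc3 (5.15), Bcl2 (1.54), Casp8 (0.504), Gsdmd (0.303), Mlkl (0.0934) and Casp1 (0.0820) to Ripk3 (0.0423) and Casp4 (listed at 0), and the room-air levels of Mlkl, Casp1 and Ripk3 lay within their spread. In OIR WT the order was Bax (35.7), Bbc3 (9.97), Casp8 (1.49), Bcl2 (1.30), Ripk3 (1.27), Mlkl (0.747), Gsdmd (0.744), Casp1 (0.290) and Casp4 (0.161). Casp8, Bcl2 and Ripk3 lay within 1 SD of each other there, as did Mlkl and Gsdmd. Among the 6 retinopathy libraries, OIR KO 3 was the lowest for 7 of the 9 genes (Casp1, Casp4, Casp8, Bax, Bbc3, Ripk3 and Mlkl), and OIR KO 2 was the highest for 5 (Casp8, Bax, Bcl2, Gsdmd and Mlkl). With differences in spread not tested, the knockout group spread more widely than wild type for Casp8 (SD 0.774 against 0.309 FPKM) and Mlkl (0.388 against 0.215 FPKM), and less for Ripk3 (0.119 against 0.252 FPKM) and Bcl2 (0.0438 against 0.196 FPKM).

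Markers of other cells moved with these genes. In bulk retina, a change in the number of cells of a type and a change in RNA per cell cannot be told apart. Of 15 microglia and macrophage markers, 14 were tested, and 9 rose and 0 fell in each retinopathy group against room air. Their summed level was 37.8 to 45.2 FPKM in room air, 92.1 to 117 FPKM for OIR WT and 79.4 to 101 FPKM in OIR KO, with OIR KO 3 lowest of the retinopathy libraries, and 0 of the 15 were at 0 throughout. Csf1r, the receptor that keeps microglia and macrophages alive, rose in OIR WT (log2 0.53, adjusted p = 0.0287) and OIR KO (log2 0.55, adjusted p = 0.0321). The markers of resting microglia P2ry12 (1.60 ± 0.597, 1.49 ± 0.498 and 1.92 ± 0.952 FPKM in RA WT, OIR WT and OIR KO) and Tmem119 (1.07 ± 0.320, 0.704 ± 0.198 and 1.02 ± 0.336 FPKM) were not called. The 9 neutrophil markers were low and summed to 0.605 to 0.679 FPKM in room air, 1.25 to 2.49 FPKM for OIR WT and 1.03 to 1.61 FPKM in OIR KO, without overlap with room air. Most of the room-air neutrophil sum was Csf3r, the only neutrophil marker tested. Csf3r was not called in OIR WT (adjusted p = 0.476) or in OIR KO (adjusted p = 0.321) against RA WT. S100a8 and S100a9 were listed at 0 in all room-air libraries and in OIR KO 1. The sum of the 5 markers of recruited monocytes was also low and without overlap with room air. They summed to 0.0459 to 0.0752 FPKM in room air, 0.450 to 0.831 FPKM for OIR WT and 0.0872 to 1.22 FPKM in OIR KO. Elane and Chil3, of these lists, were listed at 0 in all 9 libraries. Of 10 endothelial markers, 4 rose in OIR WT, 6 rose in OIR KO and 0 fell. Their sum was 72.7 to 96.8 FPKM in room air, 97.1 to 130 FPKM for OIR WT and 125 to 166 FPKM in OIR KO. Of 8 Mueller glia markers, 1 rose and 6 fell in OIR WT, and 0 rose and 3 fell in OIR KO, with sums of 1618 to 2079 FPKM in room air, 938 to 1177 FPKM for OIR WT and 1225 to 1486 FPKM in OIR KO. The 5 erythrocyte genes summed to 82.5 to 158 FPKM in room air, 512 to 1431 FPKM for OIR WT, 112 FPKM in OIR KO 1, 1070 FPKM in OIR KO 2 and 113 FPKM in OIR KO 3. The 4 astrocyte markers summed to 16.1 to 26.7 FPKM in room air, 54.7 to 157 FPKM for OIR WT and 54.8, 182 and 32.3 FPKM in OIR KO 1, 2 and 3. In every retinopathy library most of that sum was Gfap, which Mueller glia also make under stress (173 FPKM in OIR KO 2). Of the 3 tested astrocyte markers, 0 were called in OIR KO against RA WT, and 2 rose and 1 fell in OIR WT. There, Gfap and Pdgfra rose (log2 3.25 and 0.69, adjusted p = 0.0240 and 0.0380), and S100b fell (log2 -0.62, adjusted p = 0.0179). The 8 retinal ganglion cell markers summed to 488 to 612 FPKM in room air, 293 to 344 FPKM for OIR WT and 202 to 294 FPKM in OIR KO. The part of these cell types in the changes of the 9 genes was not tested.

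Genes with the most similar pattern were sought among 12749 genes with a mean of at least 1 FPKM, by the root mean square difference of their centred log2 values over the 9 libraries. For Ripk3 they were C1qc (0.13), Bcl6b (0.15) and C1qb (0.15). The complement genes C1qb and C1qc are among the microglia and macrophage markers above, and Bcl6b is in none of the marker lists. The likeness of Ripk3 to these genes holds on log2(FPKM + 0.5), where the change of Ripk3 is understated. From RA WT to OIR WT, mean FPKM went from 0.0423 to 1.27 for Ripk3 and from 0.335 to 1.85 for Bcl6b. For C1qc it went from 4.03 to 13.7 and for C1qb from 4.39 to 16.0. The nearest for Mlkl were Elk3 (0.10), Slc25a45 (0.11) and the collagen gene Col3a1 (0.12). Casp8 was nearest to the integrin gene Itga1 (0.068), Frmd8 (0.082) and Trp53i11 (0.10), and Gsdmd to Dbf4 (0.11), Scarf1 (0.13) and Hook2 (0.14). Bbc3 was nearest to Plekha4 (0.084), Fam110a (0.089) and Sema5b (0.11), Bax to Gfer (0.069), Tent5a (0.091) and Mgat2 (0.091), and Bcl2 to Lnx2 (0.052), H2-Ke6 (0.057) and Tmem161a (0.063).

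The wider pathway was described with 9 lists, which hold 89 further genes with a row, 72 of them tested. In OIR WT against RA WT, 12 of these 72 rose and 1 fell (8.04% and 7.92% of all tested genes did), with a median log2 change of 0.21 against 0.02 over all tested genes. In OIR KO against RA WT, 6 rose and 0 fell (4.75% and 5.69% of all tested genes did), with a median of 0.22 against 0.02. Among the risen genes, Bik, Bcl2a1b and P2rx7 reached 0.5 FPKM only in retinopathy libraries and could be tested only because they were high there. Of the room-air libraries, Birc5 reached 0.5 FPKM in RA WT 2 alone, Card9 in RA WT 1 and 3, and Tnfrsf10b in RA WT 1 and 2. Birc5, Card9 and Tnfrsf10b thus also passed the filter only with retinopathy libraries. Between the genotypes 0 of the 72 were called (0.134% of all tested genes were), with a median of 0.01 against 0.00 over all tested genes. These shares of all tested genes also stand beside the counts per list below and the marker counts above.

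**Figure D3:**
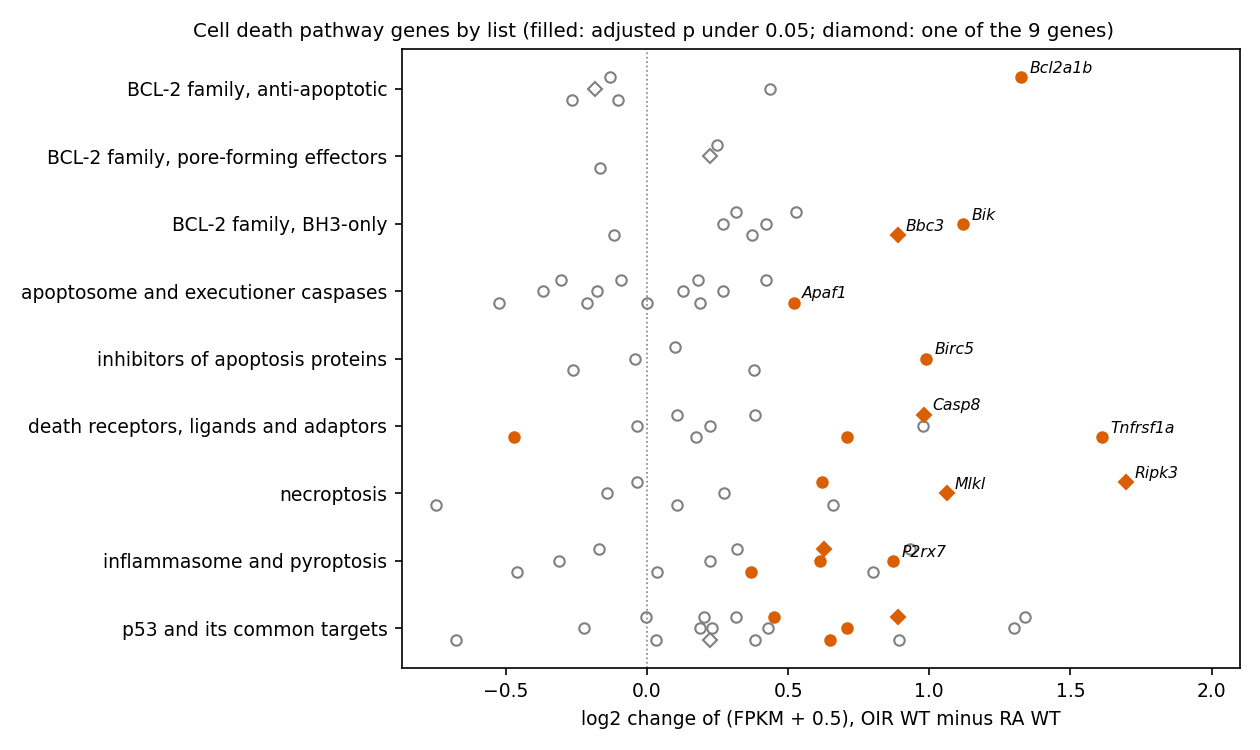
Log2 change of FPKM + 0.5 in OIR WT against RA WT (horizontal axis) for the tested genes of 9 cell death lists (vertical axis; a gene of 2 lists is drawn in both, and points are spread vertically for visibility). Filled points have an adjusted p under 0.05, diamonds are among the 9 genes, and the 1 filled point left of 0 is Ngfr.

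Within the BCL-2 family, 1 of 6 tested anti-apoptotic genes, 0 of 3 pore formers and 2 of 8 BH3-only genes rose in OIR WT, and 0 fell. The anti-apoptotic gene was Bcl2a1b, an NF-kappaB target of leukocytes, whose FPKM was 0.102 ± 0.0443 for RA WT, 1.01 ± 0.0795 for OIR WT (log2 1.33, adjusted p = 0.00124) and 1.14 ± 0.177 for OIR KO (log2 1.45, adjusted p = 0.00141). Its calls held without each library in turn, but Bcl2a1b has near-identical copies (Bcl2a1a and Bcl2a1d), so its level alone is uncertain. Bik, a BH3-only gene, went from 0.0202 ± 0.0350 to 0.642 ± 0.202 FPKM in OIR WT (log2 1.12, adjusted p = 0.0149), a call lost when RA WT 3, OIR WT 1 or OIR WT 3 was left out (0.0509 to 0.0640). Bmf, another BH3-only gene, was called in OIR KO against RA WT, from 8.38 ± 1.13 to 13.2 ± 1.00 FPKM (log2 0.63, adjusted p = 0.0282), lost without RA WT 2, RA WT 3, OIR KO 1 or OIR KO 2 (0.0709 to 0.0987). In OIR WT, Bmf was at 10.3 ± 2.24 FPKM (adjusted p = 0.257).

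Downstream of mitochondria, 1 of 13 genes of the apoptosome and executioner caspases rose in OIR WT and 0 fell. It was Apaf1, the scaffold that activates caspase-9, from 2.43 ± 0.224 to 3.70 ± 0.263 FPKM (log2 0.52, adjusted p = 0.0249), lost when RA WT 2, OIR WT 1 or OIR WT 3 was left out (0.0665 to 0.101). Of 5 tested inhibitors of apoptosis proteins, Birc5 (survivin, which also serves cell division) rose, from 0.421 ± 0.344 to 1.27 ± 0.406 FPKM in OIR WT (log2 0.99, adjusted p = 0.0413) and 1.29 ± 0.296 FPKM in OIR KO (log2 1.01, adjusted p = 0.0494). The former Birc5 call was lost without any library except RA WT 2 (0.0652 to 0.136), and the latter without RA WT 1, RA WT 3, OIR KO 1 or OIR KO 2 (0.107 to 0.144).

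Of 10 tested death receptors, ligands and adaptors, 3 rose and 1 fell in OIR WT, and 0 were called in OIR KO against RA WT. Besides Casp8, the risen genes were Tnfrsf1a and Tnfrsf10b. Tnfrsf1a, the main receptor for tumour necrosis factor, went from 4.97 ± 0.891 to 16.7 ± 5.59 FPKM (log2 1.61, adjusted p = 0.0221), lost without any library except OIR WT 2 (0.0533 to 0.0783). Tnfrsf10b, the TRAIL receptor and a p53 target, went from 0.541 ± 0.105 to 1.22 ± 0.354 FPKM (log2 0.71, adjusted p = 0.0490), lost without any 1 of the 6 libraries (0.0516 to 0.159). The fallen gene was Ngfr, the p75 neurotrophin receptor, from 14.8 ± 1.16 to 10.6 ± 1.74 FPKM (log2 -0.47, adjusted p = 0.0273), lost when any 1 of the 6 libraries but RA WT 1 and OIR WT 3 was left out (0.0606 to 0.0889).

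In the necroptosis list, 3 of 9 tested genes rose in OIR WT (Ripk3, Mlkl and Ticam1) and 2 in OIR KO, and 0 fell. Ticam1, the adaptor TRIF of Toll-like receptor 3, went from 2.26 ± 0.536 to 3.72 ± 0.569 FPKM (log2 0.62, adjusted p = 0.0483), lost without any library except RA WT 3 (0.0523 to 0.153). Ripk1, the kinase above RIPK3, was at 2.41 ± 0.455 FPKM in room air, against 4.24 ± 1.61 FPKM for OIR WT (adjusted p = 0.172). The nucleic acid sensor Zbp1, another activator of RIPK3, did not pass the filter and was at 0.0993 ± 0.0636, 0.278 ± 0.283 and 0.465 ± 0.297 FPKM in RA WT, OIR WT and OIR KO.

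The inflammasome and pyroptosis list had 24 genes, of which 23 had a row and 12 passed the filter. In OIR WT, 4 of the 12 rose and 0 fell. Besides Gsdmd these were Gsdme, another gasdermin (from 7.12 ± 0.199 to 9.36 ± 0.849 FPKM, log2 0.37, adjusted p = 0.0464), Card9, an adaptor of fungal sensing (from 0.574 ± 0.166 to 1.15 ± 0.287 FPKM, log2 0.61, adjusted p = 0.0477) and P2rx7, the ATP-gated channel that triggers the NLRP3 inflammasome (from 0.231 ± 0.0942 to 0.859 ± 0.362 FPKM, log2 0.87, adjusted p = 0.0305). The Gsdme call was lost without any 1 of the 6 libraries (0.0758 to 0.127), the Card9 call without any library except RA WT 1 and OIR WT 1 (0.117 to 0.146) and the P2rx7 call without any library except OIR WT 2 (0.0502 to 0.112). Gsdme overlaps Mpp6 on the opposite strand, and Bik, Apaf1 and Card9 each overlap an opposite-strand model. In OIR KO against RA WT, Gsdmd, P2rx7 (0.896 ± 0.291 FPKM, log2 0.92, adjusted p = 0.0335) and the guanylate-binding protein gene Gbp3 rose. The P2rx7 call was lost there without any library except OIR KO 3 (0.0511 to 0.110). Gbp3, an interferon-induced GTPase, had an FPKM of 1.19 ± 0.328 for RA WT, 1.58 ± 0.192 for OIR WT and 3.19 ± 0.957 for OIR KO (log2 1.12 against RA WT, adjusted p = 0.0109, held without each library in turn). Its difference between the genotypes, log2 0.80, was not called (adjusted p = 0.243). The inflammasome sensor gene Nlrp3 was below the filter, with an FPKM of 0.0171 ± 0.0075 for RA WT, 0.132 ± 0.0372 for OIR WT and 0.0927 ± 0.0548 for OIR KO, and Il1b did not exceed 0.162 FPKM in any library.

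Of 18 tested genes of p53 and its common targets, 4 rose in OIR WT and 0 fell: Bbc3, Tnfrsf10b, Trp53 and Btg2. Trp53, the gene of p53 itself, went from 8.45 ± 0.697 to 13.7 ± 2.80 FPKM (log2 0.65, adjusted p = 0.0305), lost without any library except OIR WT 2 (0.0557 to 0.109). In OIR KO it was at 14.0 ± 2.76 FPKM (log2 0.68, adjusted p = 0.0342), lost without any library except OIR KO 1 (0.0507 to 0.116). Btg2, an antiproliferative gene, went from 42.6 ± 4.59 to 58.5 ± 7.27 FPKM (log2 0.45, adjusted p = 0.0494), lost without any library except OIR WT 2 (0.0758 to 0.158). The cell cycle inhibitor gene Cdkn1a, the best known p53 target, was at 6.71 ± 1.80 FPKM in room air, against 17.9 ± 7.60 FPKM for OIR WT, and did not pass (adjusted p = 0.0511). Beyond leaving out libraries, 10 other settings were tried. The OIR WT calls of Gsdme, Card9 and Tnfrsf10b were each lost under 7 of them (adjusted p up to 0.115, 0.108 and 0.119), those of Btg2 and Ticam1 under 5 (up to 0.106 and 0.122), that of Birc5 under 4 (up to 0.0722) and that of Trp53 under 3 (up to 0.0824). Those of Tnfrsf1a and Apaf1 were lost under 2 and those of Ngfr and P2rx7 under 1, while Bcl2a1b kept its call under all 10 and Bik under the 9 in which it was tested. In OIR KO against RA WT, the call of Birc5 was lost under 7 (up to 0.0839), that of Trp53 under 2 and that of P2rx7 under 1, while Bcl2a1b, Gbp3 and Bmf kept theirs. The genes Ripk1, Zbp1, Nlrp3, Il1b and Cdkn1a were named after their values were seen.

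**Figure D4:**
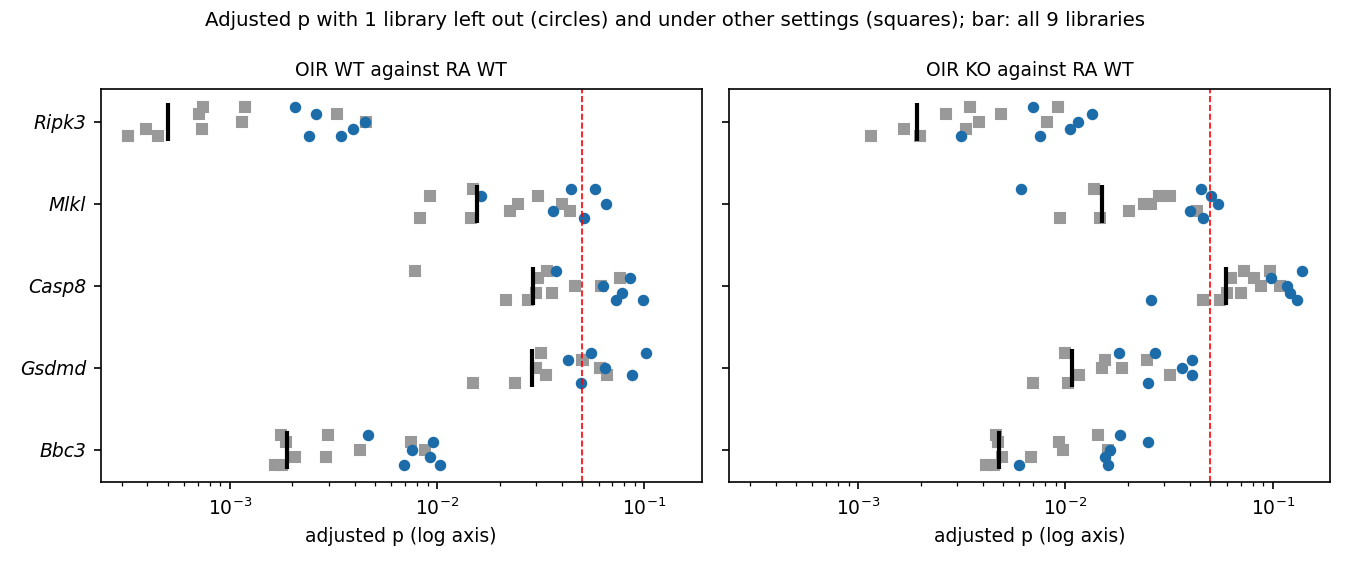
Adjusted p (horizontal axis, log scale) of Ripk3, Mlkl, Casp8, Gsdmd and Bbc3 against RA WT, for OIR WT (left) and OIR KO (right), with the threshold of 0.05 as a dashed line. Black bars are the values with all 9 libraries, circles leave out 1 library and squares are other settings; Ripk3 and Bbc3 stay left of the line throughout, and Casp8 lies on both sides of it in both panels.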

How the data were processed

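Per the labels' protocols, Trizol was used to extract the RNA and an NEBNext Ultra kit to prepare the 9 libraries. HISAT2 and GRCm38 are named in the submitters' processing notes; the aligner's version, quantifier, strand setting and annotation were each not given in the sources used here. FPKM, in a single table, are what the authors deposited. Of its rows, 22036 had an Ensembl ID, and 3072 were models without one; 22022 IDs matched GENCODE M21 (GRCm38), which gave the coordinates. In 4521 genes with 1 transcript, 26.9 to 29.3% of low values per library lay within 0.02 of a whole fragment, so counts were not recovered.

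Values were taken as log2(FPKM + 0.5). Genes at 0.5 FPKM or more in at least 3 libraries (15678) were fitted with limma 3.58.1 in R 4.3.3, with 1 mean per group over all 9 libraries, moderated with the trend and robust options, tested on both sides and adjusted by Benjamini-Hochberg over all kept genes. The script was tested on simulated data. Casp1 and Casp4 were compared with exact two-sided permutation tests. The genes named are the 9 members, the called genes of the 9 lists (up to 4 per list and comparison) and the 3 genes nearest in pattern, besides those said to be chosen otherwise. The members, lists and motifs were chosen with earlier results of these data known. Of the list symbols, 1 (Irgb10) was not matched. Some single-gene results are not reported here. Alternatives were 2 pseudocounts, 2 filters, 2 scalings, plain moderation, 2-group fits, a replicate block, a Y-linked covariate and leaving out each library; running them for the single called genes of the lists was added after seeing the data.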

Additional observations from a re-analysis of the deposited data

How the results depend on the processing

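The 5 calls among the 9 genes in OIR WT against RA WT became 3 with a filter at 1 FPKM (5 genes tested), 3 with the replicate block, 3 with the Y-linked covariate, 3 when any RA WT library was left out and 2 when OIR WT 1 or OIR WT 3 was; they stayed 5 without OIR WT 2. The 4 calls in OIR KO against RA WT became 2 with the filter at 1 FPKM and were 3 to 5 without each library in turn. Of the 72 further genes, the 13 called in OIR WT became 6 without a filter, 6 with the block, 4 with the covariate and 2 to 11 without each library (2 without OIR WT 1 or OIR WT 3); the 6 called in OIR KO against RA WT became 2 to 8 (2 without RA WT 3, 3 without RA WT 2 or OIR KO 2). Among all genes, the 2503 called in OIR WT became 1031 to 2166 without each library (1031 without OIR WT 1) and 1581 with the covariate. The 1636 of OIR KO against RA WT became 709 to 1791 (709 without OIR KO 1) and 1081 with the block. The 21 of OIR KO against OIR WT became 11 to 42 (42 without OIR KO 2), 8 with the block, 13 with the filter at 1 FPKM and 13 without the trend and robust options. Fewer samples or fewer genes were fitted by construction where libraries were left out or the filter raised; otherwise the cause was not tested. Of the 9 genes, 0 were called between the genotypes under every alternative run.

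Uncalled log2 differences changed sign for OIR KO against OIR WT in Casp8 without OIR KO 3 (0.095, range -0.43 to 0.095 over libraries left out), Bax without OIR KO 3 (0.094, range -0.24 to 0.094) and Mlkl without OIR KO 2 (-0.095) or OIR WT 2 (-0.052; range -0.095 to 0.33). For OIR KO against RA WT they did so in Bax without OIR KO 2 (-0.0040, range -0.0040 to 0.32) and in Bcl2 after quantile normalization (-0.038) or without RA WT 1 (-0.038, range -0.038 to 0.093). Casp8 passed there with a pseudocount of 0.1 (log2 1.21, adjusted p = 0.0462).

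The replicate numbers do not pair the samples: deviations of same-numbered libraries correlated across genes with r from -0.35 to 0.13. Under the block, Ripk3, Mlkl and Bbc3 kept their calls in OIR WT against RA WT. Casp1 and Casp4 lay under the filter, and the depth behind their values is unknown.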
